A study of Mus musculus with 12 samples.

Results

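Immediate early genes and heat shock genes were followed across the cells of the mouse mammary gland, as a readout of the stress response of each cell class and library. The set was a fixed list of 40 gene symbols, of which 39 were found among the 27998 genes of the count matrices and Cebpd was not. By role these were 9 AP-1 factors and their partners (Fos, Fosb, Fosl1, Fosl2, Jun, Junb, Jund, Atf3, Maff), 9 zinc-finger and nuclear-receptor factors (Egr1, Egr2, Egr3, Nr4a1, Nr4a2, Nr4a3, Klf2, Klf4, Klf6), 13 feedback and signalling genes (Ier2, Ier3, Ier5, Btg2, Dusp1, Zfp36, Socs3, Gadd45b, Gadd45g, Nfkbia, Nfkbiz, Rhob, Arc) and 8 heat shock genes (Hspa1a, Hspa1b, Hspb1, Hsph1, Dnajb1, Dnaja1, Hspa8, Hsp90aa1).

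The data came from 12 groups of C57BL/6J mice at 43 weeks of age, with 1 single-cell library of the mammary gland per group. Every group except Intact had received 4-vinylcyclohexene diepoxide (VCD, an ovarian follicle toxicant used to model menopause) at 160 mg/kg/day for 15 days. In 3 VCD libraries of the layout tested below no hormone was given: VCD_Vehicle, whose food held no polybrominated diphenyl ethers (PBDEs, flame retardants), VCD_Low_PBDE and VCD_High_PBDE. The same 3 dietary levels were given with estradiol (E2, 1 µg/animal/day for 1 week) in VCD_E2, VCD_Low_E2 and VCD_High_PBDE_E2, and with E2 and progesterone (P4, 1 mg/animal/day) in VCD_E2_P4, VCD_Low_E2_P4 and VCD_High_PBDE_E2_P4. The low diet lasted 20 weeks and gave 0.05, 0.0028 and 0.0063 mg/kg/day of PBDE-47, PBDE-100 and PBDE-153, while the high diet lasted 1 week and gave 1, 0.056 and 0.126 mg/kg/day, so that dose and duration cannot be told apart. The other libraries were Intact, VCD_Vehicle_NormEnv and VCD_E2_ICI. VCD_Vehicle_NormEnv was a further vehicle group, without hormone or PBDE, that the labels describe no further. In VCD_E2_ICI 5 mg/animal of ICI, an estrogen receptor antagonist, was given once when E2 began. Ranges given below as without hormone are those of VCD_Vehicle, VCD_Low_PBDE and VCD_High_PBDE. Food without PBDE carried DMSO, and sesame oil was the vehicle for injections. VCD depletes follicles but leaves the residual ovary in place, and the labels do not say how many mice a library held.

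Immediate early genes are transcribed within minutes of a stimulus without new protein synthesis. Serum response factor, CREB and related factors already bound to DNA are phosphorylated and switch on Fos, Egr1 and other transcription factor genes, and the feedback genes that follow, such as the phosphatase gene Dusp1 and the mRNA-decay factor gene Zfp36, end the response. Heat shock genes are switched on by heat shock factor when unfolded protein accumulates. Both programs are known to respond to warm enzymatic dissociation of tissue, which all libraries of this study underwent with collagenase and DNase, so a level in these data combines the state of the cell in the gland with its response during preparation, and these cannot be told apart.

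The proximal promoters of 5 members whose levels are described below are shown because each holds the letters of a site through which its class of genes is known to be switched on. Each line gives the 120 bases just upstream of the RefSeq start (GRCm38.p6), 5′ to 3′ on the strand of the gene, with the motif in capitals. Fos (chr12:85473770-85473889, plus strand) and Atf3 (chr1:191183334-191183453, minus strand) show the CREB site core TGACGT on either strand. Zfp36 (chr7:28379229-28379348, minus strand) shows a CArG box, the site of serum response factor. Hspa1a (chr17:34972157-34972276, minus strand) and Hspa1b (chr17:34959239-34959358, minus strand) show GAANNTTC, a head-to-head pair of heat shock element units.
Fos: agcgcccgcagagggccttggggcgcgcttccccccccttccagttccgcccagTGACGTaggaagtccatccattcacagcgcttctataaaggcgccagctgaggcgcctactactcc
Atf3: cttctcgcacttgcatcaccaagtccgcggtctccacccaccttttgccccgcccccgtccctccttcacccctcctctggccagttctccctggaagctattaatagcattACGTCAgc
Zfp36: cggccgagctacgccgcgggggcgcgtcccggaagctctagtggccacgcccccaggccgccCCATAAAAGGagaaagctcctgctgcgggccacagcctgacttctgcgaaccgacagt
Hspa1a: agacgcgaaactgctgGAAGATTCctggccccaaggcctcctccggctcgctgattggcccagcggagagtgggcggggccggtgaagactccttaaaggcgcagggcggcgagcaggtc
Hspa1b: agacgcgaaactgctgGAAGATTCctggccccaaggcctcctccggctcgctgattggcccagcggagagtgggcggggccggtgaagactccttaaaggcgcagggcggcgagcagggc

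Across the 250 bases upstream of the start, 31 of the 39 members had a RefSeq promoter entry, and 6 motifs were searched on both strands. The CREB core TGACGT occurred in 7 of the 31 (Atf3, Btg2, Dusp1, Egr2, Fos, Maff and Nr4a3), against 7.29% of 27025 genes. GAANNTTC occurred in 6 members, among them 4 of the 6 heat shock genes with an entry (Hspa1a, Hspa1b, Hspb1 and Dnaja1), against 7.73% of genes, and the tail-to-tail pair TTCNNGAA occurred in Egr2 and Hsph1, against 8.11%. A CArG box stood in Egr2 and Zfp36, against 1.62% of genes. The AP-1 site TGANTCA, held by 7.82% of genes, and the full palindromic estrogen response element, held by 0.0666%, occurred in none of the 31 windows. Upstream of their starts Hspa1a and Hspa1b shared 247 of 250 bases. Of the stretches of 91 bases in their transcripts, 49.1% of those of Hspa1a and 52.0% of those of Hspa1b occurred unchanged in the other, but only 5.93% and 17.7% within the last 1000 bases, where a 3′ library is read. Reads of this pair may therefore have been divided or dropped in counting, and their values are uncertain.

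The 12 libraries held 41737881 to 109224969 unique molecular identifiers (UMIs, each standing for 1 captured RNA molecule). Of 46257 cells that passed the filters, 35781 were gated as fibroblasts from Col1a1, Col1a2, Col3a1, Dcn, Lum and Pdgfra, 1139 as macrophages, 2734 as T cells and 665 as NK cells. The fibroblast markers summed to 29239 to 49292 CPM (counts of a gene scaled to a fixed total of all UMIs of the class in 1 library) in the fibroblast gate and to 298 to 751 CPM in macrophages, 316 to 822 CPM in T cells and 355 to 880 CPM in NK cells. Fibroblasts were further split by the markers of the subtypes Fib_0 to Fib_3 of the study, whose minor subtype Fib_4 was given no gate here, into 12841 Fib_0-like cells (the Dpp4+ subtype), 7788 Fib_1-like cells, 4583 cells named Fib_2-like and 4451 named Fib_3-like, with 6118 between subsets. No member of the gene list was a marker. Pairs of libraries shared up to 185 cell barcodes, and results without the cells concerned are given with the alternatives at the end.

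In fibroblasts the 39 genes together took 2.54% to 4.45% of all UMIs of a library. In a single fibroblast the 31 immediate early members took a median of 2.53% of the UMIs, with a 10th percentile of 1.08% and a 90th percentile of 5.71%, and the 8 heat shock members took a median of 0.467%. The median of the immediate early share ranged from 2.01% in VCD_High_PBDE_E2_P4 to 3.26% in VCD_E2_ICI, and that of the heat shock share from 0.365% in VCD_High_PBDE_E2_P4 to 0.63% in VCD_Low_PBDE. Within single libraries the 10th percentile of the immediate early share was 0.8% to 1.52% and the 90th percentile 3.76% to 7.42%, so that the cells of each library covered a wider span than the medians of the libraries did. Of the 39 members, 38 averaged at least 10 CPM in fibroblasts, and Egr3, a zinc-finger factor, averaged 0.431 CPM.

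The members varied more between fibroblast libraries than most genes did. The SD of log2(CPM + 1) over the 12 libraries had a median of 0.35 over the 38 members, with a range of 0.16 to 0.60, against 0.14 over the 7762 genes of at least 10 CPM. All 38 lay above the median of these genes and 22 lay above their 90th percentile of 0.31. The widest spreads were those of the orphan receptor genes Nr4a2 (0.60) and Nr4a3 (0.52), the inducible HSP70 genes Hspa1b (0.59) and Hspa1a (0.54), and Arc (0.56), which encodes a cytoskeletal protein best known from neurons. In macrophages, from the same libraries but with 52 to 159 cells each, the median was 0.29 over 36 members against 0.30 over all genes, and 2 members lay above the 90th percentile of 0.55. Thinning the libraries of a class to equal UMIs gave medians of 0.35 over members and 0.14 over all genes in fibroblasts, at 30385404 UMIs each, and of 0.31 and 0.38 in macrophages, at 533321 UMIs each. The depths of the classes were not matched, so their spreads are not compared.

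**Figure D1:**
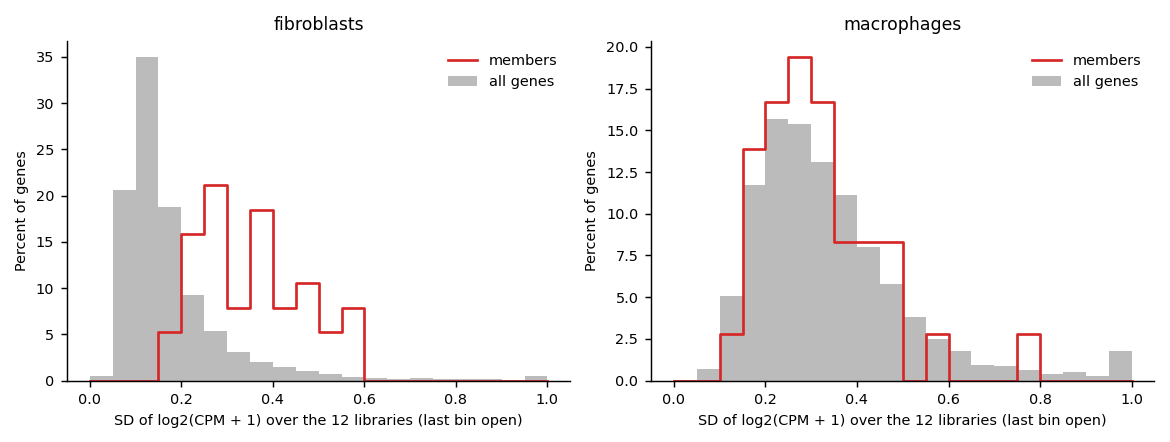
Share of genes (y axis) by the SD of log2(CPM + 1) over the 12 libraries (x axis) in fibroblasts and in macrophages, for genes of at least 10 CPM and for the members. In fibroblasts the members (median 0.35) sit to the right of all genes (median 0.14), and in macrophages the medians are 0.29 and 0.30.

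Levels of the AP-1 and heat shock genes were correlated over the 12 fibroblast libraries. The median Pearson r was 0.67 over pairs within the AP-1 group, 0.73 over pairs of heat shock genes and 0.66 between the groups, against 0.04 over all pairs of the 7762 genes of at least 10 CPM. Zinc-finger and nuclear-receptor factors had a median r of 0.51 with the heat shock genes and of 0.44 with the AP-1 genes, and pairs of feedback genes one of 0.22. These values describe the 12 libraries, whose genes share depth and fibroblast composition, and were not tested. The 12 include the 6 libraries with E2 or E2 + P4, in which most of the AP-1 and heat shock genes were lower. The part of this grouping in the correlations was not tested.

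**Figure D2:**
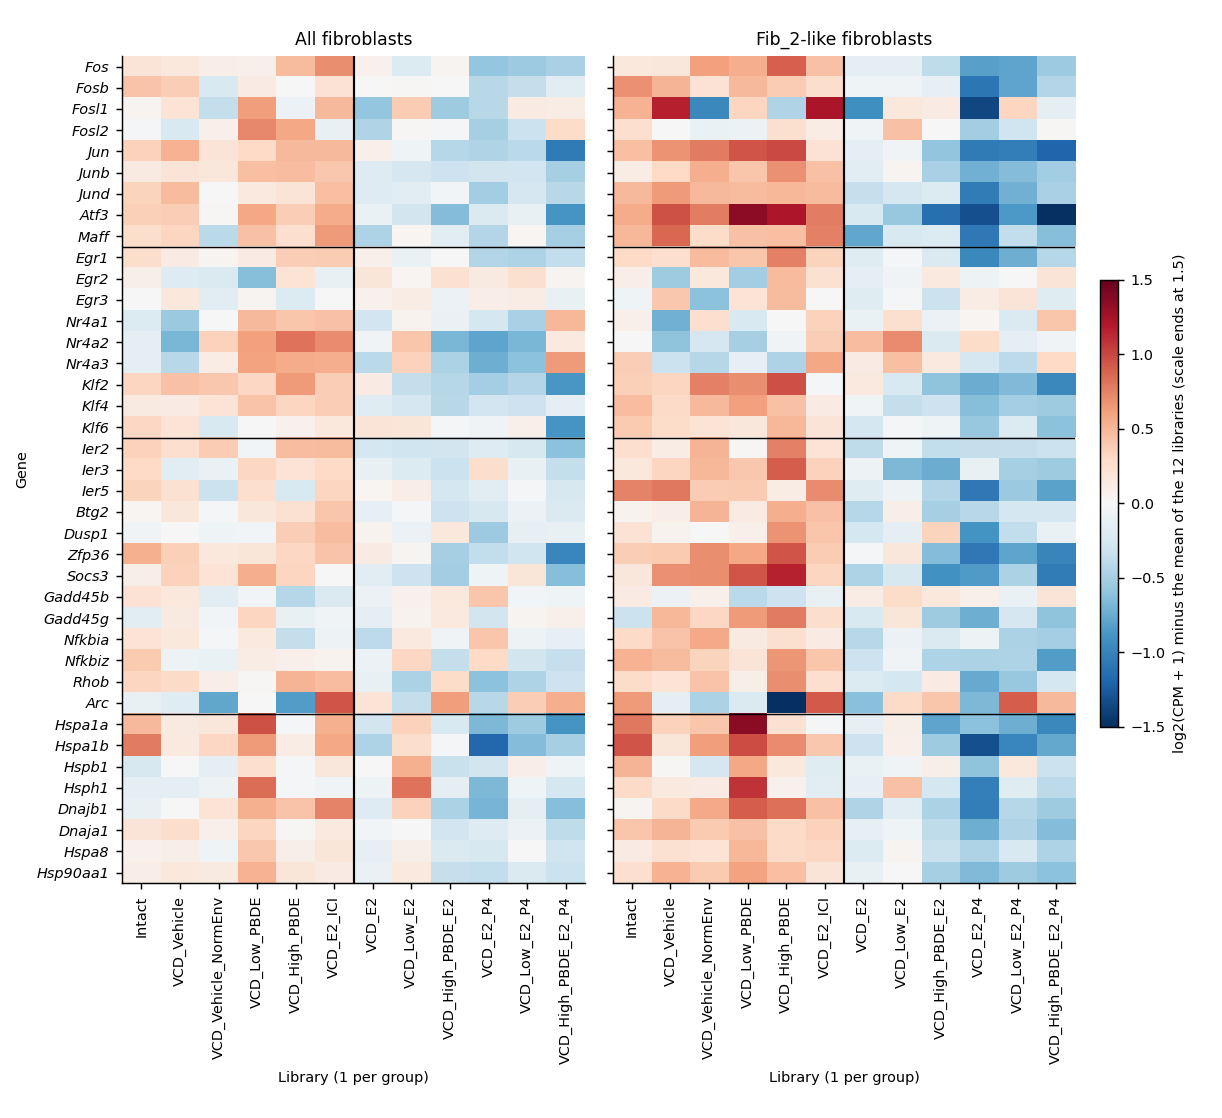
Level of each member (rows, by role) in each of the 12 libraries (columns) in all fibroblasts and in Fib_2-like fibroblasts, as log2(CPM + 1) minus the mean of the 12. Libraries without E2 or with ICI stand left of the line and the 6 libraries with E2 or E2 + P4 stand right of it, where most rows are lower.

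E2, alone or with P4, was the condition along which these genes differed most in fibroblasts. Summed over the 39 members, the level was 39909, 41398 and 41626 CPM in VCD_Vehicle, VCD_Low_PBDE and VCD_High_PBDE, against 32513, 32310 and 29880 CPM in their E2 counterparts and 26776, 28539 and 25383 CPM in their E2 + P4 counterparts. No hormone library reached the lowest library without hormone. In the test of E2 and E2 + P4 together against no hormone over these 9 libraries (edgeR quasi-likelihood test, Benjamini-Hochberg adjustment over all genes), 22 of the 39 members fell, none rose and 17 did not pass, where 19.5% of all 14986 genes tested passed in either direction. The median log2 fold change was -0.46 over the members and -0.015 over all genes. Each group was 1 library, so the error comes from how far the 9 libraries departed from an additive model of hormone and PBDE level, with 4 residual degrees of freedom. The file names carry 1 of 2 library codes, and within the low diet the code separates VCD_Low_PBDE from VCD_Low_E2 and VCD_Low_E2_P4, so that it overlaps in part with hormone. With the code as a term 18 members fell and none rose, and 882 of all genes passed against 2919 without it.

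Of the 9 AP-1 genes 8 fell and Fosl1 did not pass. Fos, whose protein pairs with Jun proteins in AP-1, was at 4581, 4356 and 5738 CPM in VCD_Vehicle, VCD_Low_PBDE and VCD_High_PBDE, at 4323, 3569 and 4247 CPM with E2 and at 2761, 2829 and 2951 CPM with E2 + P4. The groups with and without hormone did not overlap, although VCD_E2 lay close to VCD_Low_PBDE, and the fitted log2 fold change was -0.57 ± 0.08 (SE, adjusted p = 0.0055). Jun was at 2686, 2297 and 2614 CPM without hormone, 1974, 1789 and 1383 CPM with E2 and 1361, 1410 and 897 CPM with E2 + P4, a log2 fold change of -0.88 ± 0.12 (adjusted p = 0.00471). Junb, a Jun relative, was at 3178, 3805 and 3835 CPM without hormone and at 1964 to 2423 CPM in the 6 hormone libraries (-0.73 ± 0.09, adjusted p = 0.00368).

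Atf3 and Maff encode smaller bZIP factors that dimerize with AP-1 or related proteins and often repress. Atf3 was at 1092, 1272 and 1092 CPM without hormone, 789, 699 and 539 CPM with E2 and 729, 785 and 457 CPM with E2 + P4, with no overlap and a log2 fold change of -0.87 ± 0.11 (adjusted p = 0.00424). Maff was at 271, 295 and 258 CPM without hormone and at 153 to 222 CPM with hormone (-0.64 ± 0.08, adjusted p = 0.00409), but VCD_Vehicle_NormEnv, without hormone, was at 164 CPM and so within the hormone range. Jund, Fosl2 and Fosb also fell, by 0.59, 0.58 and 0.37 on the log2 scale. The call of Fosl2 was lost in 5 of 19 alternatives, among them those without VCD_E2_P4, VCD_Low_PBDE, VCD_Low_E2 or VCD_High_PBDE (adjusted p up to 0.144), and that of Fosb in 10, among them those without any 1 library except VCD_High_PBDE and VCD_High_PBDE_E2_P4 (adjusted p up to 0.171).

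The zinc-finger and nuclear-receptor factors were divided, with Egr1, Klf2 and Klf4 lower and the other 6 outside the threshold. Egr1, an immediate target of growth factor signalling, was at 2191, 2195 and 2594 CPM without hormone, 2109, 1867 and 1997 CPM with E2 and 1481, 1458 and 1557 CPM with E2 + P4, a log2 fold change of -0.48 ± 0.07 (adjusted p = 0.00582). VCD_Vehicle_NormEnv, also without hormone, was at 2072 CPM of Egr1 and so within the hormone range. Klf2, a Krüppel-like factor, changed by -0.93 ± 0.13 (adjusted p = 0.00562), from 1292 to 1634 CPM without hormone to 571 to 1137 CPM with it. The call of Klf4 was lost without VCD_Low_PBDE and with the library code as a term (adjusted p up to 0.052). Nr4a1, an orphan nuclear receptor gene induced with Fos in many cells, did not follow. It was at 305, 627 and 599 CPM without hormone, 368, 465 and 416 CPM with E2 and 374, 318 and 634 CPM with E2 + P4, and its log2 fold change was -0.26 ± 0.22 (adjusted p = 0.436).

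Among the 13 feedback and signalling genes 5 fell. These were Zfp36 (-0.67), Socs3 (-0.71), an inhibitor of cytokine signalling, Rhob (-0.60), a small GTPase, and Ier2 (-0.59) and Btg2 (-0.41). The call of Ier2 was lost without VCD_Vehicle or VCD_High_PBDE (adjusted p up to 0.0536). Dusp1, Ier5, Nfkbia and the other 5 of the group did not pass, and their log2 fold changes lay between -0.32 and 0.42.

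Of the 8 heat shock genes 6 fell and Hspb1 and Hsph1 did not pass. Hspa1a was at 364, 644 and 325 CPM without hormone, 274, 422 and 283 CPM with E2 and 207, 229 and 179 CPM with E2 + P4, so that the groups overlapped through VCD_Low_E2, and its fitted log2 fold change was -0.78 ± 0.12 (adjusted p = 0.00801). Hspa1b was at 398, 559 and 387 CPM without hormone, 261, 432 and 354 CPM with E2 and 158, 229 and 255 CPM with E2 + P4 (-0.78 ± 0.13, adjusted p = 0.00867). Its groups overlapped through VCD_Low_E2 too, and its call was lost without VCD_Low_PBDE and with the library code as a term (adjusted p up to 0.0552). Both were highest, within each hormone level except for Hspa1b under E2 + P4, in the library on the low PBDE diet.

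The other 4 heat shock genes that fell include constitutive chaperones. Hspa8, the constitutive HSC70 gene, was at 2760, 3430 and 2762 CPM without hormone, 2382, 2758 and 2232 CPM with E2 and 2200, 2603 and 2113 CPM with E2 + P4, a log2 fold change of -0.37 ± 0.06 (adjusted p = 0.00859). Among the 9 libraries tested, the margin between the highest with hormone and the lowest without was 2 CPM. Outside the test, VCD_Vehicle_NormEnv (2478 CPM) and Intact (2702 CPM) lay within the hormone range. The call of Hspa8 was lost without VCD_Low_PBDE (adjusted p = 0.0504). Hsp90aa1, the inducible HSP90, was at 898, 1156 and 915 CPM without hormone, 756, 892 and 637 CPM with E2 and 625, 694 and 645 CPM with E2 + P4 (-0.53 ± 0.08, adjusted p = 0.0075). For this gene too, VCD_Vehicle_NormEnv (883 CPM) and Intact (862 CPM) lay within the hormone range. Dnaja1, a co-chaperone of the DNAJ family, was at 844, 879 and 711 CPM without hormone and at 541 to 705 CPM with it (-0.41 ± 0.05, adjusted p = 0.00401), and Dnajb1 fell by 0.67 on the log2 scale.

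Without reference to the fit, 16 of the 38 members of at least 10 CPM were higher in all 3 libraries without hormone than in all 6 with it, where 6.84% of the 7762 genes of that level were. No member showed the reverse, where 13.0% of these genes did. The 3 libraries outside the layout were then compared with the same 6 hormone libraries. VCD_E2_ICI lay above all 6 for 14 of the 16 genes, Intact for 13 and VCD_Vehicle_NormEnv for 11. Of all 531 genes that were higher without hormone in the same way, VCD_E2_ICI lay above the 6 for 54.4%, Intact for 67.6% and VCD_Vehicle_NormEnv for 66.3%, so that these 3 libraries lay above the hormone libraries for most of such genes, members or not. Fos was at 6686 CPM in VCD_E2_ICI, the highest of the 12 libraries, and at 4704 CPM in Intact. Summed over all members, VCD_E2_ICI was at 44507 CPM, Intact at 39927 CPM and VCD_Vehicle_NormEnv at 35667 CPM, each above the 32513 CPM of VCD_E2. Each of these is a single library, and no test was made on it. VCD_E2_ICI and VCD_Vehicle_NormEnv carried a different library code from VCD_E2, VCD_Vehicle and Intact. Median UMIs per fibroblast were 14545 in VCD_E2_ICI and 19754.5 in VCD_E2. The part of code and depth in these values was not tested.

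Several other values differed between the libraries with and without hormone, some with overlapping ranges. The median number of UMIs per fibroblast was 14369.5 to 16653.5 without and 15649.5 to 22509 with hormone, and the median mitochondrial share 2.75% to 3.44% against 2.43% to 3.01%. CPM are shares of UMIs and do not count molecules per cell. Fib_0-like cells made up 24.0% to 43.2% of fibroblasts without and 32.4% to 51.0% with hormone, and Fib_1-like cells 21.6% to 27.3% against 11.2% to 26.2%. Among the 6 macrophage markers, all detected, the summed level in fibroblasts was 2.95 to 4.04 CPM without and 4.53 to 8.49 CPM with hormone, and that of the 6 pericyte markers was 31.7 to 50.6 against 21.9 to 36.5 CPM. The endothelial and adipocyte markers, 6 of 6 detected in each list, were also higher with hormone, at 1.31 to 1.86 against 2.2 to 4.07 CPM and 1.9 to 3.32 against 3.62 to 18.8 CPM. The dendritic cell markers, 6 of 6 detected, were lower with it, at 1131 to 1251 against 776 to 1034 CPM. Which of the 6 genes carried this sum, here and in Fib_2-like cells below, was not examined. Of these 5 lists the pericyte markers alone overlapped between the groups. The part of these in the result was not tested, except that the subsets were fitted one by one.

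Other genes of the same programs were tested in the same fit, where 19.5% of all genes passed. Among 30 further early response genes, Rgs2, a regulator of G protein signalling, rose by 1.46 ± 0.20 (adjusted p = 0.00487), 8 fell (Ier5l, Mcl1, Cxcl1, Gadd45a, Bcl3, Ppp1r15a, Csrnp1 and Myc) and 21 did not pass. Among 20 further chaperones and co-chaperones 5 fell (Hspd1, Hspb8, Fkbp4, Bag3 and Stip1), none rose and 15 did not pass.

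Adding P4 to E2 changed no member past the threshold in all fibroblasts, where 0.0133% of genes passed (edgeR quasi-likelihood test). At an unadjusted p below 0.05 there were 11 of 39 members, all lower with P4, against 9.83% of all genes in either direction. They were led by Fos with a log2 fold change of -0.47 ± 0.09 (adjusted p = 0.311) and Egr1 with -0.37 ± 0.08 (adjusted p = 0.347). The per-library levels of Fos and Egr1 above did not overlap between E2 and E2 + P4.

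The PBDE diets likewise changed no member past the threshold in all fibroblasts. For the low diet, where 0% of genes passed, 10 of 39 members had an unadjusted p below 0.05 and all were higher, against 3.6% of all genes in either direction. They were led by Hsph1, an HSP110 co-chaperone, with a log2 fold change of 0.85 ± 0.15 and followed by Dnajb1 with 0.55 ± 0.13 and Hspa1b with 0.59 ± 0.15 (adjusted p = 0.998 for each). For the high diet, where 0.367% of genes passed, 11 of 39 members had an unadjusted p below 0.05, against 21.1% of all genes, led by Dnaja1 with -0.27 ± 0.06 (adjusted p = 0.0845). The 3 contrasts share their libraries with the hormone contrast. Of these 9 libraries, the 3 without PBDE carried one of the 2 library codes and the 3 on the high diet the other, so that a model with both terms separates the code from the high diet through the 3 low-diet libraries alone. With the code as a term 0 members passed on the high diet in all fibroblasts as well.

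The fibroblast subsets differed from one another, with some members higher and others lower in each. Each subset was compared with the mean of the other 3 within the 12 libraries, with the library as a block (48 sums, edgeR quasi-likelihood test). In Fib_0-like cells 10 members were higher and 22 lower, where 72.2% of all genes passed. In Fib_1-like cells 27 were higher and 7 lower (60.2% of genes), in Fib_2-like cells 10 were higher and 18 lower (60.3%), and in Fib_3-like cells 14 were higher and 7 lower (50.1%). With 12 libraries the test passes most genes, so the size of a difference says more than its call. Each subset also enters the mean that the other subsets are compared with, so that a high value in one lowers the contrasts of the others. The fit held no term for subset by hormone, so each value is an average over libraries with and without hormone.

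Fib_0-like, the Dpp4+ subset, had high levels of the Nr4a receptor genes and low levels of Jun and Arc. Nr4a3 was higher by 2.56 ± 0.11 on the log2 scale (adjusted p = 1.4e-22), Nr4a1 by 1.70 ± 0.09 (adjusted p = 2.2e-19), Nr4a2 by 1.57, Fosl1 by 1.49, Fosl2 by 1.27 and Klf4 by 1.08. Over the 12 libraries Nr4a1 lay between 459 and 1162 CPM in Fib_0-like cells and between 53.7 and 213 CPM in Fib_1-like cells, so the ranges were separate. Nr4a2 was also higher in Fib_3-like cells than in the mean of the others, and in VCD_E2_P4 it was at 57.4 CPM in Fib_3-like and 31.9 CPM in Fib_0-like cells. The Fib_0-like cells were lower in Arc (-3.61 ± 0.18, adjusted p = 4.5e-20), Egr2 (-2.28), Hspa1b (-1.81) and Jun (-1.54). Arc was near the floor in this subset, at 0.908 to 5.74 CPM, with 22 counts in the lowest library.

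Fib_1-like cells, which carry lipid-handling markers such as Fabp4 and Lpl, were higher in Arc and Jun and lower in the 3 Nr4a genes and Fosl2, while Fosl1 (0.08) and Klf4 (-0.02) did not pass. Arc (3.13 ± 0.13, adjusted p = 1.9e-22), Jun (1.28), Zfp36 (1.18), Dnajb1 (1.16) and Ier2 (1.06) were higher, and Nr4a2 (-3.49), Nr4a3 (-2.53), Nr4a1 (-2.18), Ier3 (-1.44) and Fosl2 (-1.26) were lower. Nr4a2 was at only 2.07 to 12.2 CPM in this subset, with 17 counts in the lowest library. Jun ranged from 2002 to 5546 CPM over the 12 libraries in Fib_1-like cells and from 524 to 997 CPM in Fib_0-like cells, and Fos from 3582 to 10063 CPM against 2087 to 4332 CPM. The ranges of Jun were separate, while those of Fos overlapped through hormone libraries of Fib_1-like cells.

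Fib_2-like and Fib_3-like cells differed from the other subsets in further members. Fib_2-like cells were higher in Egr2 (1.66 ± 0.11, adjusted p = 3.7e-16) and Gadd45b (0.90), a stress sensor gene, and lower in Klf4 (-1.08), Dnajb1 (-0.92) and Nfkbiz (-0.94). The difference in Dnajb1 varied with hormone. In VCD_Vehicle it was at 262 CPM in Fib_2-like and 165 CPM in Fib_0-like cells, and in VCD_E2_P4 at 104 and 182 CPM. Egr3 was 1.72 higher in the fit but did not exceed 1.87 CPM in any library of this subset. Fib_3-like cells were higher in Nr4a2 (1.51 ± 0.16, adjusted p = 6.5e-10), Gadd45g (1.21) and Socs3 (0.90) and lower in Rhob (-0.97 ± 0.06, adjusted p = 2.4e-17).

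**Figure D3:**
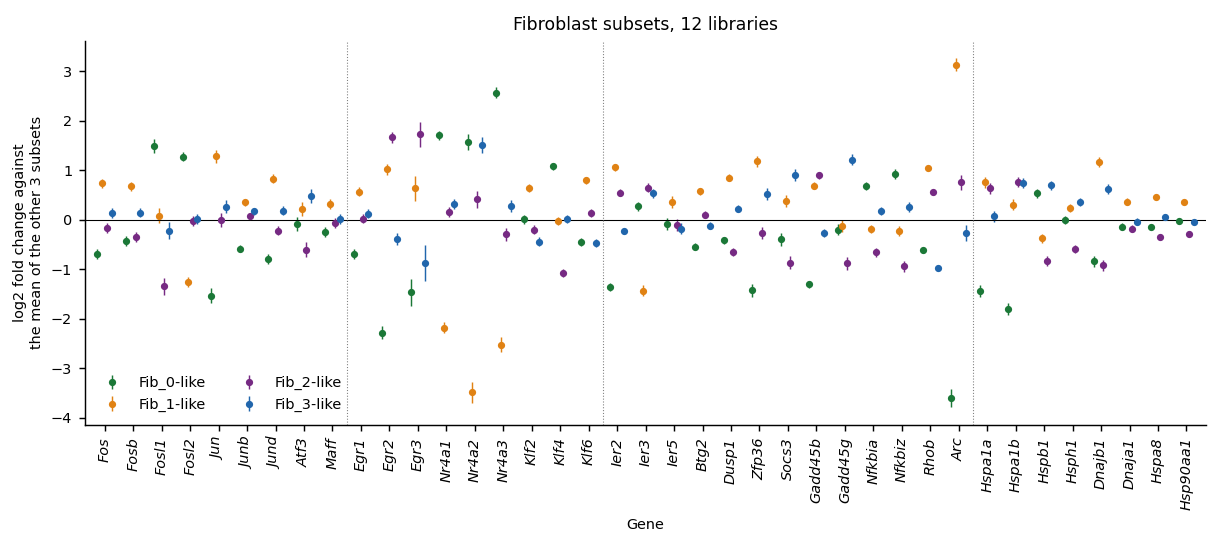
Log2 fold change (y axis, ± SE) of each member (x axis) in each fibroblast subset against the mean of the other 3, with the library as a block. The Nr4a genes and Fosl2 lie on the high side in Fib_0-like and on the low side in Fib_1-like cells, and Jun, Zfp36 and Arc lie the other way.

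E2 alone was not tested against no hormone, so the change with hormone below is that of E2 and E2 + P4 together. It was fitted in each subset and was largest in Fib_2-like cells. There 30 of 39 members fell, Gadd45b rose (0.33 ± 0.11, adjusted p = 0.0384) and 8 did not pass (edgeR quasi-likelihood test, 33.4% of all genes passed), and the median log2 fold change of the members was -0.94 against -0.016 over all genes. The levels of Gadd45b overlapped between the groups, and its call was lost in 8 of 15 alternatives (adjusted p up to 0.176), among them those without VCD_E2_P4, VCD_Low_PBDE, VCD_Low_E2, VCD_High_PBDE or VCD_High_PBDE_E2_P4. That of Hspb1 was lost in 3, with the library code as a term and without VCD_Vehicle or VCD_Low_PBDE (adjusted p up to 0.119). By role, 7 of 9 AP-1 genes, 4 of 9 zinc-finger and nuclear-receptor factors, 11 of 13 feedback genes and all 8 heat shock genes fell. In this subset 26 of 38 members of at least 10 CPM were higher in all 3 libraries without hormone than in all 6 with it, where 10.7% of 7843 genes were.

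Atf3 changed most. In Fib_2-like cells it was at 1189, 1546 and 1423 CPM in VCD_Vehicle, VCD_Low_PBDE and VCD_High_PBDE, at 521, 411 and 279 CPM with E2 and at 244, 337 and 215 CPM with E2 + P4, a log2 fold change of -2.17 ± 0.16 (adjusted p = 1.3e-05). VCD_E2_ICI was at 1044 CPM, Intact at 898 CPM and VCD_Vehicle_NormEnv at 1037 CPM, all above every hormone library. Jun was at 2895, 3493 and 3624 CPM without hormone, 1664, 1760 and 1204 CPM with E2 and 871, 889 and 800 CPM with E2 + P4 (-1.61 ± 0.12, adjusted p = 1.3e-05), so that the 3 treatments formed 3 separate ranges. Socs3 was at 1177, 1408 and 1630 CPM without hormone and at 353 to 623 CPM with it (-1.66 ± 0.14, adjusted p = 3.3e-05).

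Heat shock genes of Fib_2-like cells fell as well. Dnajb1, the co-chaperone of HSP70 in the heat shock response, was at 262, 404 and 381 CPM without hormone, 157, 192 and 154 CPM with E2 and 104, 159 and 148 CPM with E2 + P4 (-1.26 ± 0.11, adjusted p = 2.9e-05). Hspa1b was at 705, 1232 and 1017 CPM without and at 249 to 656 CPM with hormone (-1.31 ± 0.14, adjusted p = 0.00011), and Hsp90aa1 at 1026, 1084 and 979 CPM without and at 452 to 711 CPM with hormone (-0.99 ± 0.10, adjusted p = 6.4e-05). For each of these genes the groups were separate. Jund, an AP-1 gene, was at 4394, 3937 and 4010 CPM without hormone, 2235, 2370 and 2451 CPM with E2 and 1370, 1718 and 2016 CPM with E2 + P4 (-1.11 ± 0.10, adjusted p = 5.5e-05), again with no overlap. In contrast, Nr4a1 (0.31), Nr4a2 (0.54) and Nr4a3 (0.29) did not pass.

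Fib_2-like cells also differed with hormone in ways that bear on their gate and depth. Their median UMIs per cell were 8670 to 10466.5 without and 15078 to 28151 with hormone. CPM are shares of these UMIs, so a member that fell in CPM need not have fallen in molecules per cell, which were not tested. The gate markers Postn, a matricellular protein gene, and Mfap4 were higher with hormone, at 527 to 887 against 2709 to 9556 CPM and 153 to 177 against 230 to 752 CPM, while Enpp2 and Penk were lower, at 903 to 1007 against 163 to 517 CPM and 414 to 506 against 47.1 to 304 CPM. Tnc, of the same gate, was at 246 to 346 against 126 to 238 CPM, and the Fib_1 marker Col15a1, a collagen gene, at 208 to 321 against 776 to 1262 CPM. The 6 fibroblast markers of the gate, all detected, summed to 40824 to 42677 CPM without and 57891 to 88399 CPM with hormone, separate ranges that take part of the total to which every CPM value is scaled. The summed pericyte markers, 6 of 6 detected, were 52.3 to 53.8 CPM without and 15.0 to 25.2 CPM with hormone, and the basal epithelial markers, 6 of 6 detected, 0.934 to 3.11 against 10.9 to 40.5 CPM. The macrophage, endothelial and dendritic cell markers, 6 of 6 detected in each list, were separate between the groups too, at 1.75 to 3.28 against 5.26 to 10.1, 1.38 to 2.8 against 3.12 to 6.22 and 1108 to 1340 against 678 to 1032 CPM. The share of fibroblasts in this gate was 7.46% to 19.9% without and 9.02% to 17.7% with hormone. With Postn and Mfap4 taken out of the gate the count was again 30 lower and 1 higher. The part of the other values was not tested.

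In the other subsets the change with hormone was smaller. In Fib_1-like cells 17 of 39 members fell and none rose (13.6% of genes passed), with Atf3 (-1.11 ± 0.14, adjusted p = 0.00161), Klf2 (-1.09 ± 0.14, adjusted p = 0.0021) and Jun (-0.92 ± 0.13, adjusted p = 0.0025) among them and the lowest adjusted p at Rhob (-0.60 ± 0.07, adjusted p = 0.00107) and Klf4 (-0.81 ± 0.10, adjusted p = 0.0014). Atf3 in this subset was at 1222, 1498 and 1495 CPM without and at 468 to 873 CPM with hormone. Gate markers of Fib_1-like cells differed with hormone too. Fabp4 was at 1168 to 2575 against 3226 to 6211 CPM and Cd36 at 16.0 to 67.7 against 126 to 392 CPM. Smoc2 (1224 to 1352 against 427 to 799 CPM) and Cxcl14 (1328 to 1365 against 768 to 1300 CPM) were lower. Lpl, Col15a1 and Pparg overlapped. The Fib_2 marker Postn was at 263 to 344 against 605 to 3546 CPM. The part of these was not tested. In Fib_0-like cells 7 of 38 fell (12.1% of genes passed): Fosl2, Junb, Maff, Klf2, Klf4, Hspa1a and Hsp90aa1. Each of these 7 calls was lost in some of the 15 alternatives, from 2 for Fosl2, Klf2 and Klf4 to 10 for Maff (adjusted p up to 0.206). Fos (0.13 ± 0.08, adjusted p = 0.324) and Jun (0.20 ± 0.10, adjusted p = 0.212) did not pass there. Jun was at 920, 673 and 578 CPM without hormone and at 524 to 997 CPM with it, ranges that overlapped fully. Without VCD_Low_PBDE, or with the library code as a term, 1 member passed in Fib_0-like cells. This count, like the other counts under alternatives given without a share of all genes, is not read as particular to the members.

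In Fib_3-like cells 2 members passed, where 2.63% of genes did, and both were HSP70 genes. Hspa1b was at 689, 1021 and 923 CPM without hormone, 398, 641 and 790 CPM with E2 and 203, 301 and 391 CPM with E2 + P4 (-1.03 ± 0.12, adjusted p = 0.00609), and Hspa1a changed by -1.15 ± 0.14 (adjusted p = 0.00699). The levels with E2 alone overlapped those without hormone and those with E2 + P4 did not. Without VCD_Low_PBDE, or with the library code as a term, 0 members passed here.

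**Figure D4:**
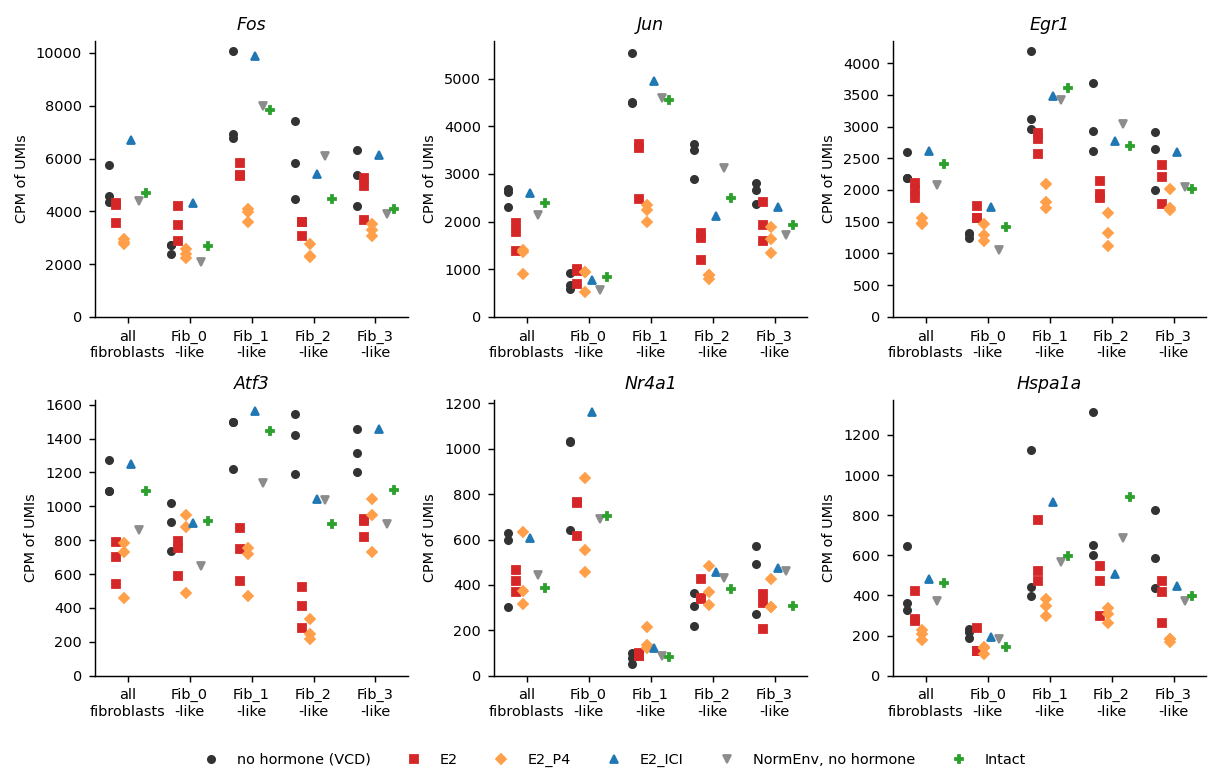
Level in CPM (y axis) of Fos, Jun, Egr1, Atf3, Nr4a1 and Hspa1a in each of the 12 libraries (points, by hormone) for all fibroblasts and the 4 subsets (x axis). The hormone libraries of Fib_2-like cells lie below those without hormone for Jun, Atf3, Fos, Egr1 and Hspa1a, and Nr4a1 is highest in Fib_0-like cells.

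Whether the change with hormone differed between subsets was tested directly, as the interaction of subset and hormone with the library as a block (36 sums, edgeR quasi-likelihood test). In Fib_2-like cells 28 members had a more negative change than the mean of the other 3 subsets and 3 a more positive one, where 26.1% of all genes differed in either direction. The largest was Atf3, with a difference of -1.51 ± 0.12 (adjusted p = 1.7e-07), followed by Socs3 (-1.19 ± 0.14, adjusted p = 7.6e-06) and Jun (-1.18 ± 0.11, adjusted p = 6.1e-07). The 3 with a positive difference were Nr4a1 (0.39), Nr4a2 (0.89) and Nr4a3 (0.68).

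In Fib_0-like cells 14 members had a more positive change and 4 a more negative one (17.8% of genes). Jun (1.21 ± 0.12, adjusted p = 3e-06), Atf3 (0.96), Fos (0.88), Zfp36 (0.83) and Egr1 (0.78) were on the positive side, and Nr4a2 (-1.16), Fosl2 (-0.73), Nr4a1 (-0.62) and Nr4a3 (-0.56) on the negative side. Fib_1-like cells differed in 3 members (3.99% of genes), Nr4a1 (0.79), Fosl2 (0.71) and Klf4 (-0.32), and Fib_3-like cells in 13 (3.80% of genes), 12 more positive and 1, Nr4a1, more negative (-0.55). The Nr4a receptors therefore differed between subsets in the opposite direction to Jun, Atf3 and Fos. The subsets of a library are compared with one another here, so that a value that is more negative in one subset makes those of the others more positive.

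The addition of P4 to E2 passed the test for few members within subsets. In Fib_2-like cells Jun (-0.84 ± 0.14, adjusted p = 0.0201) and Fosb (-0.68 ± 0.14, adjusted p = 0.0456) fell (1.75% of genes passed), and in Fib_1-like cells Jund fell (-0.54 ± 0.10, adjusted p = 0.0458, 0.84% of genes passed). Fosb in Fib_2-like cells was at 1063, 1066 and 1017 CPM with E2 and at 521, 639 and 818 CPM with E2 + P4. Jund in Fib_1-like cells was at 4679, 4863 and 4439 CPM with E2 and at 3046, 3550 and 3261 CPM with E2 + P4. Neither pair of ranges overlapped. At an unadjusted p below 0.05 there were 23 of 39 members in Fib_2-like cells (16.1% of all genes) and 18 of 39 in Fib_1-like cells (17.0%), against 6 of 38 in Fib_0-like cells (10.8%) and 7 of 38 in Fib_3-like cells (7.6%). With 1 library left out at a time the count was 0 to 9 in Fib_2-like cells, and it was 0 without any 1 of VCD_E2, VCD_E2_P4, VCD_Low_E2 and VCD_Low_E2_P4 in both subsets.

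The other cell classes of the same libraries gave a different profile of these genes. Fibroblasts, macrophages, T cells and NK cells were compared, each with the mean of the others and the library as a block (46 sums, edgeR quasi-likelihood test). In fibroblasts 25 of 38 members were higher and 7 lower, where 84.8% of all genes passed, with Fos (3.36 ± 0.07, adjusted p = 9e-35), Gadd45g (3.39), Hspb1 (3.39), Jun (3.33) and Egr1 (3.17) well above the mean of the others and Nr4a2 below it (-2.37). In macrophages 21 were higher and 12 lower (70.8%), with the largest differences in Egr2 (3.94 ± 0.11, adjusted p = 3.7e-29), a factor of macrophage differentiation, Ier3 (3.34) and Hspa1a (2.72). In T cells 15 were higher and 17 lower (66.7%), and in NK cells 4 were higher, with Nr4a2 (2.08) foremost, and 32 lower (64.5%). Most genes passed here too, and in fibroblasts the members passed about as often as all genes. The sizes of the differences therefore say more than the calls.

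The range over the 12 libraries shows the scale of these differences. Fos lay between 2761 and 6686 CPM in fibroblasts, 759 and 1748 CPM in macrophages, 245 and 490 CPM in T cells and 125 and 429 CPM in NK cells. The lowest NK value, in VCD_High_PBDE_E2_P4, rested on 15 cells and 12 counts. That library and VCD_High_PBDE, with 18 NK cells, were under the 20 cells needed to enter the test. Hspa1a was ordered otherwise, at 179 to 644 CPM in fibroblasts and 878 to 2158 CPM in macrophages. The fibroblast ranges of Fos and of Hspa1a did not overlap those of macrophages. Fibroblast markers were also detected in the immune classes, at the levels given above, and the part of free fibroblast RNA in their Fos level was not tested.

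With E2, none of the 38 members tested in macrophages passed (0.38% of genes did), and none of the 38 in T cells (0% of genes), while 7 in each class had an unadjusted p below 0.05, against 10.6% of all genes in macrophages and 5.53% in T cells (edgeR quasi-likelihood test). The smallest adjusted p in macrophages was that of Hspa1b, with a log2 fold change of -0.57 ± 0.13 (adjusted p = 0.0884). Macrophages were represented by 52 to 159 cells per library, and the part of depth in this count was not tested. Fos in macrophages was at 793, 1226 and 1748 CPM without hormone and at 759 to 1382 CPM with it, and Jun at 443, 732 and 904 CPM without and at 341 to 565 CPM with hormone. The difference between the changes in fibroblasts and in macrophages was not tested.

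**Figure D5:**
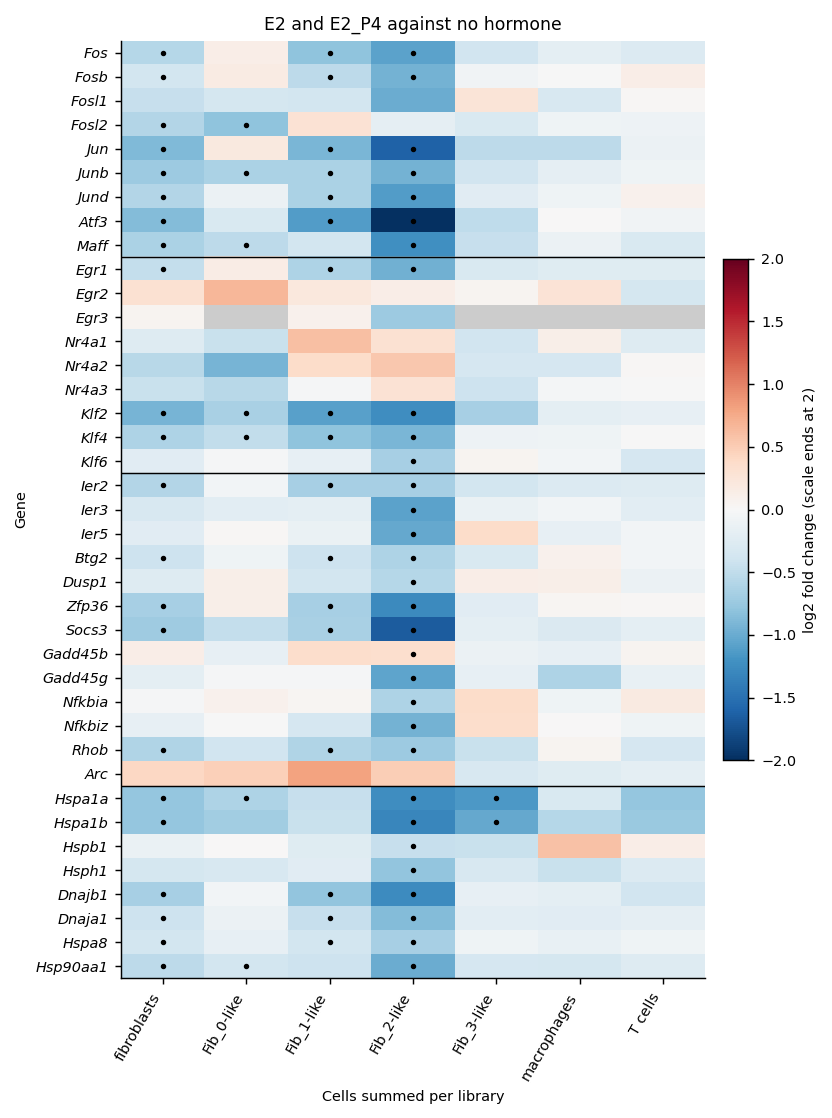
Log2 fold change of each member (rows) with E2 and E2 + P4 against no hormone in all fibroblasts, the 4 subsets, macrophages and T cells (columns), with a dot where the adjusted p was below 0.05 and grey where a gene was not tested. Dots are densest in Fib_2-like cells (31 of 39) and absent from macrophages and T cells.

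Among the remaining contrasts in these classes, 3 members rose on the high PBDE diet in macrophages, where 0.357% of genes passed, and 2 fell when P4 was added to E2 in T cells, where 0.667% passed. Hspa1b in macrophages was at 780, 821 and 628 CPM in VCD_Vehicle, VCD_E2 and VCD_E2_P4, against 2239, 1217 and 1197 CPM in the corresponding high-diet libraries and 1704, 1275 and 948 CPM in the low-diet libraries, and its log2 fold change on the high diet was 1.01 ± 0.15 (adjusted p = 0.00769). Hspa1a rose by 0.82 ± 0.15 (adjusted p = 0.0369) and Dusp1, whose product dephosphorylates MAP kinases, by 0.70 ± 0.11 (adjusted p = 0.0143). VCD_Vehicle_NormEnv, without PBDE but with the same file-name code as the high-diet libraries, was at 1751 CPM of Hspa1b and 1912 CPM of Hspa1a, within their range. With the library code as a term, or without VCD_E2_P4 or VCD_High_PBDE_E2_P4, 0 members passed on the high diet. In T cells Fosb was at 565, 504 and 560 CPM with E2 and 311, 275 and 251 CPM with E2 + P4 (-0.99 ± 0.19, adjusted p = 0.0459), and Maff changed by -0.86 ± 0.15 (adjusted p = 0.0349). At an unadjusted p below 0.05 there were 22 of 38 members for this contrast in T cells (15.6% of all genes).

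Over the members as a whole, a library high for a gene in fibroblasts was only weakly likely to be high in macrophages, but the genes differed. Over the 12 libraries, the correlation of log2(CPM + 1) between the classes had a median Pearson r of 0.33 (median Spearman rho 0.28) over 36 members, with a range of -0.49 to 0.79, against a median r of 0.27 (rho 0.25) over all 6152 genes. With 1 library left out at a time the median r of the members lay between 0.21 and 0.46. Both classes share the library, its depth and its free RNA, and no test was made.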

How the data were processed

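Single cells of dissociated mammary glands were profiled with Chromium v3 3′ kits in 12 libraries, 1 per group. The authors deposited raw UMI counts, not normalized, from Cell Ranger 3.1.0 with the mm10 genome. Cell Ranger drops reads that match several genes equally, which can lower near-identical pairs such as Hspa1a and Hspa1b, although no loss was measured.

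Of 58620 barcodes, 46257 were kept, with a minimum of 500 detected genes and 1000 UMIs and no more than 5% of UMIs from 13 mitochondrial genes. Classes were gated by marker genes, with fibroblasts taken by the summed share of their marker UMIs. Fibroblasts were assigned to the subset whose marker score led by at least 0.3, with the markers of the study's subtypes Fib_0 to Fib_3 (Fib_4, a minor subtype, was not gated), and subsets therefore bear "-like" names. No doublet caller was used, and leaving out cells above the 97.5th percentile of UMIs was an alternative. Counts were summed per library and class (at least 20 cells) and tested with edgeR 4.0.16 in R 4.3.3 (TMM, filterByExpr, quasi-likelihood F test, Benjamini-Hochberg adjustment over all genes tested, threshold 0.05). SE is the log2 fold change divided by the square root of F. The hormone and PBDE contrasts used the 9 libraries of the full layout with additive terms, which the study's methods do not state and the design required. Intact, VCD_Vehicle_NormEnv and VCD_E2_ICI entered as values.

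Library totals ranged from 41737881 to 109224969 UMIs. With 1 library per group, p-values reflect the spread between these libraries, which may be technical. UMIs correct for amplification, and counting error is within the fitted spread.

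The members and lists were chosen with earlier results of these data known. Levels per library are given for Fos, Jun, Egr1, Atf3, Nr4a1, Hspa1a, Hspa1b, Hspa8 and Hsp90aa1 and for up to 6 called members with the lowest adjusted p per contrast, and other members by counts and range. Positions and promoters are RefSeq's on GRCm38.p6, with 31 of 39 members matched. Alternatives were DESeq2 1.42.0, other gates and filters, library-total scaling, the library code as a term and each library left out in turn. Those without cells of shared barcodes, with library totals, without Postn and Mfap4 in the gate and those for E2 within subsets and macrophages, for the interaction and for cell classes were chosen after seeing the data. The tests were checked on simulated data. At a log2 change of 0.5 with hormone, 28%, 2.5% and 9% of altered genes were recovered in fibroblasts, Fib_2-like cells and macrophages. Of the calls there, 11.1%, 16.7% and 10% were false. At a change of 1, 82%, 75.5% and 66.5% were recovered, and 8.4%, 5% and 8.3% of calls were false. For Fib_2-like cells in the subset comparison and the interaction, 5.1% and 3.5% were false. A member that did not pass is therefore not read as unchanged.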

Additional observations from a re-analysis of the deposited data

Results flagged for a closer look

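The change with hormone (E2 and E2 + P4 together) differed between fibroblast subsets for some members, by the interaction of subset and hormone (edgeR quasi-likelihood test, adjusted p below 0.05). Against the mean of the other 3 subsets, it differed for 31 of 39 members in Fib_2-like cells (26.1% of all genes), 18 in Fib_0-like cells (17.8%), 13 in Fib_3-like cells (3.80%) and 3 in Fib_1-like cells (3.99%). The members with the lowest adjusted p in Fib_2-like cells were Atf3, with a difference of -1.51 on the log2 scale, Jun (-1.18) and Dnajb1 (-0.91). In Fib_0-like cells they were Jun (1.21), Zfp36 (0.83) and Egr1 (0.78), in Fib_1-like cells Nr4a1 (0.79), Fosl2 (0.71) and Klf4 (-0.32), and in Fib_3-like cells Klf4 (0.64), Dnajb1 (0.53) and Atf3 (0.67). Median UMIs per cell in Fib_2-like cells were 8670 to 10466.5 without and 15078 to 28151 with hormone, and the part of this in the difference was not tested.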

How the results depend on the processing

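In this section the counts with E2 are for E2 and E2 + P4 together against no hormone. The count of members that fell with E2 was 17 to 25 in all fibroblasts, 15 to 23 in Fib_1-like and, with Gadd45b counted where it rose, 29 to 33 in Fib_2-like cells over all alternatives, against 22, 17 and 31. Of the 22 members called in all fibroblasts, 16 were called in all 19 alternatives, and Klf4, Fosl2, Fosb, Ier2, Hspa8 and Hspa1b were lost in some. In Fib_2-like cells 29 of 31 were called in all 15 alternatives, and Hspb1 and Gadd45b were lost in some. In Fib_1-like cells 15 of 17 were called in all 15, with Btg2 and Hspa8 lost in some, and in Fib_0-like cells 0 of 7 and in Fib_3-like cells 0 of 2. No named value changed sign while called.

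With DESeq2, 4 members passed for E2 + P4 against E2, 1 for the low and 6 for the high PBDE diet in all fibroblasts, against 0 each, and in macrophages 1 passed with E2 (0.599% of all genes) and 6 on the high diet (0.553%). DESeq2 passed 10 members for E2 + P4 against E2 in Fib_1-like (2.12% of all genes) and 7 in Fib_2-like cells (2.21%), and 5 with E2 in Fib_3-like cells (2.62%). With library totals 5 passed with E2 in Fib_3-like cells and 0 for P4 in Fib_1-like cells. For this setting and those that follow, counts without a share of all genes are not read as particular to the members. The library code as a term left 1 member with E2 in Fib_0-like and 0 in Fib_3-like cells, 2 for P4 in Fib_1-like and 1 in Fib_2-like cells, and 0 on the high diet in macrophages. A stricter gate gave 0 members for P4 in Fib_1-like and 4 in Fib_2-like cells, the gate without Postn and Mfap4 gave 1 in Fib_2-like cells, and leaving out cells of shared barcodes gave 1 with E2 in macrophages.

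With 1 library left out at a time, the E2 counts were 17 to 25 in all fibroblasts, 1 to 6 in Fib_0-like, 15 to 21 in Fib_1-like, 29 to 33 in Fib_2-like and 0 to 4 in Fib_3-like cells and 0 to 2 in macrophages. The counts for P4 were 0 to 0 in all fibroblasts, 0 to 6 in Fib_1-like and 0 to 9 in Fib_2-like cells. Those for the low diet were 0 to 0, for the high diet 0 to 1 in all fibroblasts and 0 to 3 in macrophages. The subset counts were 31 to 34, 32 to 34, 23 to 29 and 17 to 21 for Fib_0-like to Fib_3-like cells, and the median r was 0.21 to 0.46. Each group had 1 library, so leaving one out removes a cell of the layout.

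Over all genes in fibroblasts, 882 passed with E2 when the library code was a term, against 2919, and DESeq2 passed 114 genes (0.761%) for P4 against 2, 8 (0.0534%) for the low diet against 0 and 832 (5.55%) for the high diet against 55. The cause of these differences was not tested. No alternatives were run for T cells. Libraries of different groups could not be paired by animal, because each group has 1 library and the labels give no pairing. Subsets and cell classes were compared within libraries. Macrophage sums rested on 52 to 159 cells per library, and the part of depth in their counts was not tested.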
